A study of Mesocricetus auratus with 7 samples.

Results

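Fully grown germinal vesicle (GV) oocytes of sterile golden hamster (Mesocricetus auratus) females with 2 mutant copies of Mov10l1 (KO, n = 3) were compared with those of fertile females with 1 mutant copy (HET, n = 2). The KO females were 45, 40 and 36 weeks old (KO 1, KO 2 and KO 3) and the HET females 40 and 36 weeks (HET 2 and HET 3), so that KO 2 and HET 2 shared an age, as did KO 3 and HET 3. Oocytes of wild-type females (WT, n = 2, aged 37 and 17 weeks) carried no mutant copy, entered the fit but not the contrast, through the scaling, the filters and the shared estimate of the spread, and are given for orientation. The mutant allele lacks exon 20 of Mov10l1 and descends from a single edited founder female whose offspring were crossed to outbred animals, so that the line rests on 1 founder. The genes described are the 8364 of 22285 in the count table with a mean of at least 2 CPM (read counts scaled to a library total of 1000000) over the 5 KO and HET libraries, and they held 99.7% of the counts.

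MOV10L1 is an RNA helicase that takes part in the making of piRNAs, the small RNAs that lead PIWI proteins to the transcripts of retrotransposons and silence them. Fully grown oocytes are arrested in the first meiotic prophase with their transcription largely shut down, and the mRNA stored by then serves meiotic maturation and the first steps of the embryo. A comparison of KO with HET oocytes addresses which stored transcripts differ between sterile and fertile carriers of the same allele.

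The allele was made with pairs of guide RNAs that cut on both sides of exon 20. The 4 targets are shown because they define the allele that KO animals carry on both chromosomes and HET animals on one. The capitals mark the last 3 bases, which have the form NGG of the motif that Cas9 requires.
Intron 19, first target: gggtatcacatgacttgGGG
Intron 19, second target: ggtgttgggatcatagtgGGG
Intron 20, first target: tctccactcttccatgtgGGG
Intron 20, second target: taccattacatttgtcagGGG

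Each library was made from 6 to 12 oocytes and held 24242442 to 33956304 estimated counts. The 20 most abundant genes took 16.5% of the counts in HET 3 and 22.8 to 24.9% in the other 4 KO and HET libraries. The oocyte transcripts Sall4, Cpeb1, Ddx4, Elavl2, Taf4b and Nobox were abundant in all 7 libraries, between 3130 normalised read counts (Nobox in KO 3) and 38003 (Cpeb1 in HET 3). Markers of granulosa, theca and other gonadal somatic cells summed to 26.2 to 44.2 CPM in HET and 29.1 to 49.1 in KO. These sums cover the 16 of 31 listed markers that could be matched to an identifier through a symbol, of which 4 reached the mean of 2 CPM, and their part in the results below was not tested.

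Distances between libraries of the same genotype overlapped with those between genotypes. HET 2 and HET 3 differed by more than 2-fold in 28.2% of the 8364 genes, and the 3 pairs of KO libraries in 16.7 to 22.8%. A KO library and a HET library differed by that much in 19.9% (HET 2 and KO 2) to 29.7% (HET 3 and KO 1) of the genes. The HET pair thus stood farther apart than 5 of the 6 pairs of a KO with a HET library. The KO libraries were close to each other among the most abundant genes, where the median SD of log2 counts was 0.083 in KO and 0.203 in HET.

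**Figure D1:**
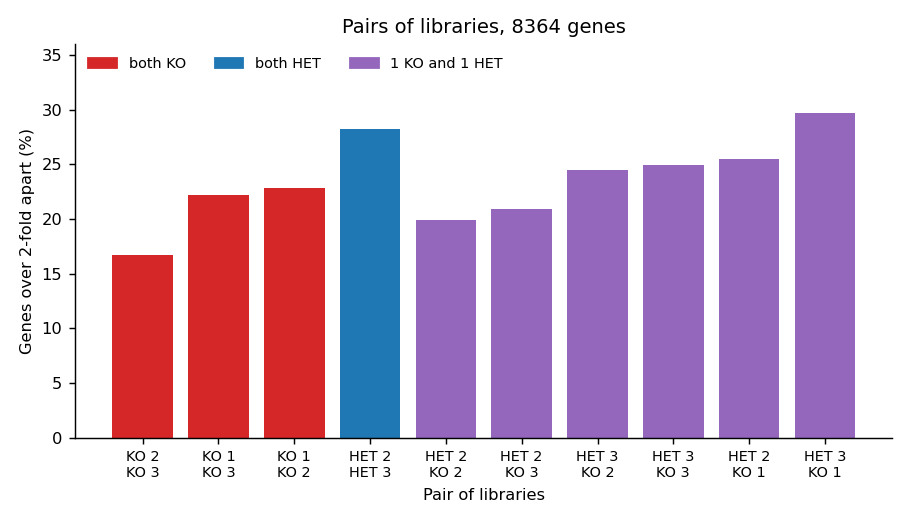
Share of the 8364 genes whose normalised read counts (log2 after adding 1) lay over 2-fold apart in each pair of libraries, for the 3 pairs of KO libraries, the HET pair and the 6 pairs of a KO with a HET library. The HET pair, at 28.2%, lies above every KO pair and above all mixed pairs except HET 3 and KO 1 (29.7%).

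The edited gene itself, Mov10l1 (ENSMAUG00000003667), was examined first. Its normalised read counts were 135, 185 and 94.0 in KO, 468 and 500.5 in HET, and 388 and 965 in WT. All 3 KO libraries lay below both HET libraries, and the KO mean was 28.5% of the HET mean. The log2 fold change of −1.81 (SE 0.514) was not called by DESeq2 (adjusted p 0.0856). Counts were summed over all exons, so that transcripts that lack exon 20 were still counted and the reads left in KO say nothing about the deletion.

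Between KO and HET oocytes, 24 of 8356 genes tested were called (0.287%, DESeq2 adjusted p under 0.01), with 19 raised in KO (0.227%) and 5 lowered (0.0598%). A further 8 genes had no p-value because of DESeq2's filter on outlying counts. Over all 14954 genes tested in the table, 35 were called (0.234%). At an unadjusted p under 0.05 there were 736 of the genes described (8.81%), of which 376 (4.5%) were higher and 360 (4.31%) lower, so that the excess of raised genes was found among called genes and not among the larger set. edgeR called 2 of 8359 genes (0.0239%), Nacc1 and Zfhx3, and had 422 genes (5.05%) at an unadjusted p under 0.05. The number called depended on single libraries. Without HET 2 it was 135 and without HET 3, the library with the lower share of its most abundant genes, it was 28, with 8 of the 24 among them. Without KO 2 it was 11, with 5 raised and 6 lowered, and without KO 3 it was 14, with 8 raised and 6 lowered. In the fits without a HET library a single one remained, and the KO and WT libraries alone gave the spread.

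**Figure D2:**
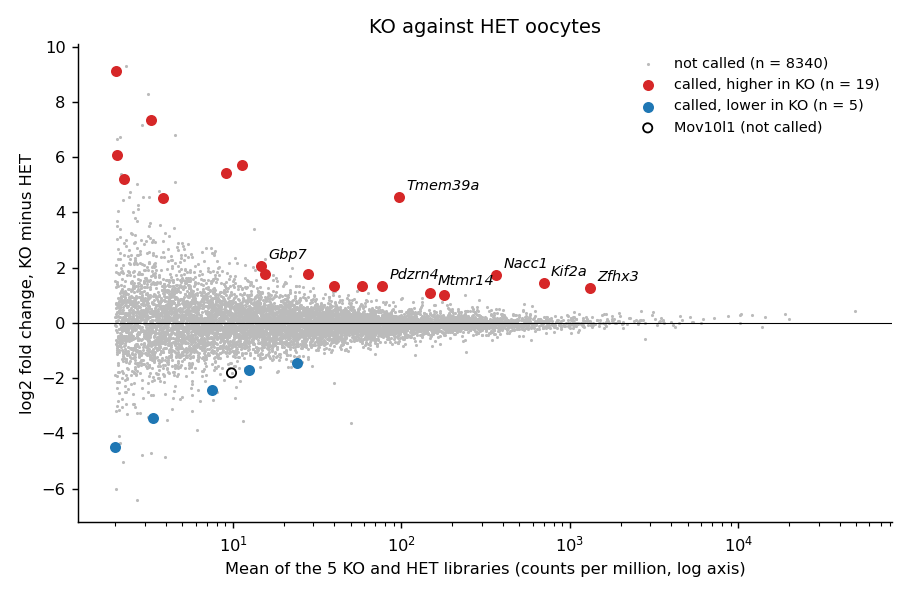
log2 fold change of KO minus HET (DESeq2, not shrunken) against the mean of the 5 KO and HET libraries in CPM (log axis) for the 8364 genes. Red and blue points are the 19 raised and 5 lowered called genes, grey points the 8340 others, and the open circle is Mov10l1, which was not called. Grey points spread less as abundance rises, and the called genes over 100 CPM are all raised.

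The size of the differences fell with abundance. Among the 2872 genes with a mean of 2 to 10 CPM, the median absolute log2 fold change was 0.63 and the median SE 0.825, and 29.5% of genes differed by more than 1 on the log2 scale. The median absolute change was 0.29 among the 3834 genes of 10 to 100 CPM, where 4.93% exceeded 1, and 0.13 among the 1514 genes of 100 to 1000, where 0.462% did. Among the 144 genes over 1000 CPM it was 0.09, with a median SE of 0.170, and 1 gene, Zfhx3, exceeded 1. The median change in each class was thus below its median SE. The median signed log2 fold change over all genes described was −0.02, after a scaling that centres the libraries on each other.

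All 3 KO libraries lay above both HET libraries in 820 genes (9.8%) and below both in 889 (10.6%), together 1709 (20.4%). For a single gene an exact permutation test of 3 against 2 libraries cannot go below a two-sided p of 0.2, and these counts are a description. The genotypes were without overlap and over 2-fold apart in 564 genes (6.74%), of which 322 were higher in KO (3.85%) and 242 lower (2.89%). The mean of at least 2 CPM is taken over 3 KO and 2 HET libraries. Genes found in KO alone thus pass it more easily than genes found in HET alone. In 5 of the 322, and in 3 of the 19 called raised genes, neither HET library exceeded 3 normalised read counts. On the scale of CPM, 290 were higher and 276 lower. Of the higher and lower genes, 242 and 185 had a mean of only 2 to 10 CPM. In the class of 10 to 100 CPM they numbered 74 and 56. Over 100 CPM, 6 genes were over 2-fold higher and 1, Gramd1c, was over 2-fold lower without overlap. Among genes over 1000 CPM, 21 lay above and 6 below the HET libraries without overlap, and Zfhx3 alone did so by more than 2-fold.

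The abundant called genes were raised, and 4 of them have symbols. Zfhx3 (ENSMAUG00000000602), a large transcription factor with zinc fingers and homeodomains, had 52696, 46176 and 48676 normalised read counts in KO, and 19410 and 21984 in HET. The WT libraries, with 23352 and 21904, lay beside HET and apart from KO. The KO mean was 49183 ± 3289 (SD, n = 3) against 20697 ± 1820 (SD, n = 2) in HET. On the log2 scale the change was 1.25 (SE 0.155), with an adjusted p of 3.63e-12 by DESeq2.

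Kif2a (ENSMAUG00000000851), a kinesin that takes microtubules apart at their ends and acts on the spindle, had 26645, 26773 and 26998 normalised read counts in KO. The HET libraries had 6689 and 13235, and WT had 9124 and 6992. The KO libraries were almost alike, whereas HET 3 lay nearly 2-fold above HET 2. The log2 fold change was 1.43 (SE 0.274, DESeq2 adjusted p 0.000189), and 2.00 without HET 3 against 1.02 without HET 2.

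Nacc1 (ENSMAUG00000004663), a transcriptional regulator with a BTB domain, had 14286, 13967 and 15701 normalised read counts in KO and 5251 and 3534 in HET, against 5079 and 4909 in WT. It rose, with a log2 fold change of 1.74 (SE 0.210) and an adjusted p of 1.04e-12 by DESeq2. Its value was not whole in 4 of the 5 KO and HET libraries, so that some of its reads were divided between alignments or genes. Mtmr14 (ENSMAUG00000018826), a phosphatase of phosphoinositide lipids, had 5311, 5754 and 5074 in KO, 2266 and 2767 in HET, and 3252 and 2633 in WT (log2 fold change 1.10, SE 0.203, DESeq2 adjusted p 8.14e-05). Another raised gene of 100 to 1000 CPM has no symbol here. All 4 named genes had every KO library above every HET and WT library.

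Zfhx3, Kif2a and Nacc1 together made up 1065 to 1453 CPM in HET, 1268 to 1334 in WT and 3008 to 3198 in KO. All 19 raised genes together made up 1368 and 1810 CPM in the HET libraries, 3894 to 4142 in KO and 1709 to 1824 in WT. The 5 lowered genes fell from 68.6 and 107 CPM in HET to 21.8 to 24.6 in KO, with 38.8 to 44.5 in WT. Most of the counts that separated KO from HET among called genes thus belonged to 3 genes.

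**Figure D3:**
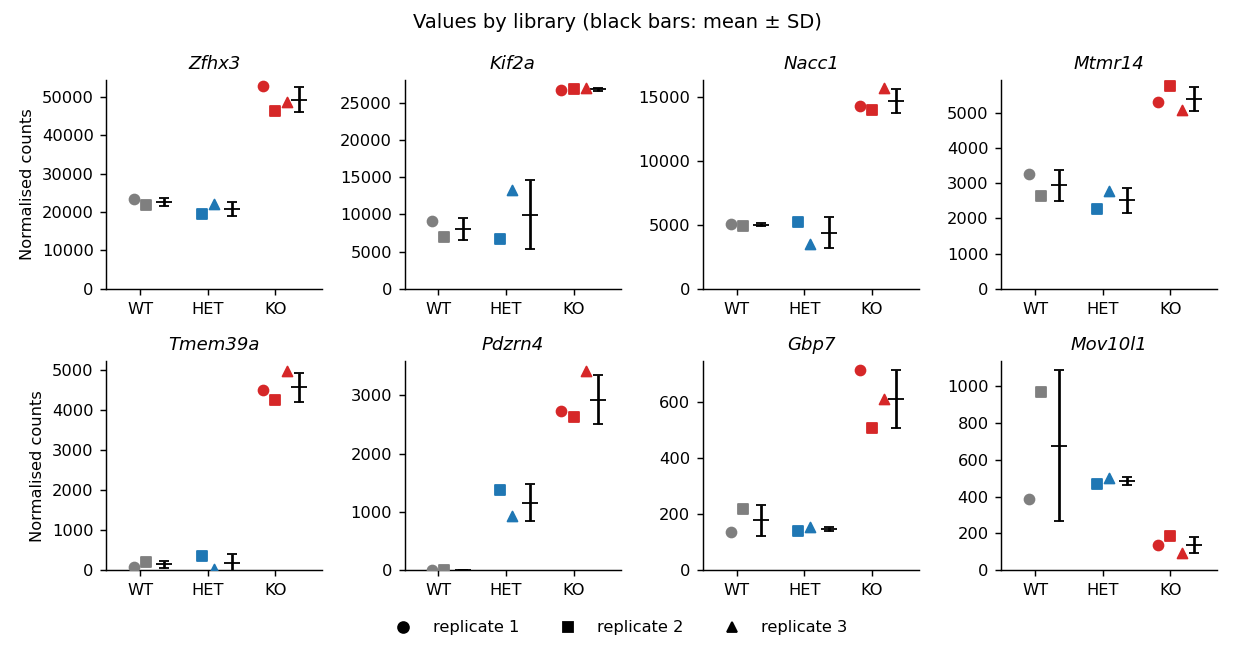
Normalised read counts of the 7 called genes with a symbol and of Mov10l1 in each library, by genotype, with the replicate number as the marker shape and the mean ± SD as black bars (n = 2 for WT and HET, n = 3 for KO). In the 7 called genes every KO library lies above every HET and WT library, Pdzrn4 is almost absent from WT, and Mov10l1 is lowest in KO.

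Less abundant called genes included those with larger folds. Tmem39a (ENSMAUG00000018677), a membrane protein of the endoplasmic reticulum, had 4485, 4236 and 4962 normalised read counts in KO, 354 and 32.5 in HET, and 87.1 and 209 in WT. The HET libraries differed more than 10-fold from each other, and KO lay far above both of them (log2 fold change 4.56, SE 1.004, DESeq2 adjusted p 0.00329). The call was lost when any KO library was left out (DESeq2 adjusted p 0.0547, 0.0431 and 0.100 without KO 1, KO 2 and KO 3). With age as a covariate it was also lost, at a log2 fold change of 4.55 (DESeq2 adjusted p 0.0457, WT left out). With the replicate number as a block it was kept, at 5.44 (DESeq2 adjusted p 3.82e-05). The log2 fold change was 7.13 without HET 2 and 3.69 without HET 3. Its values were not whole in 3 of the 5 libraries.

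Gbp7 (ENSMAUG00000019671), of the guanylate-binding proteins that interferon induces, had 715, 507 and 611 normalised read counts in KO and 141 and 153 in HET, with 138 and 217 in WT. Its log2 fold change was 2.05 (SE 0.412, DESeq2 adjusted p 0.000544). Gbp7 changed by 1.93 to 2.17 on the log2 scale without single KO or HET libraries, and by 2.01 with age as a covariate. It passed the threshold in no fit that left out a KO or HET library (DESeq2 adjusted p 0.0132 to 0.0669), nor with age as a covariate (DESeq2 adjusted p 0.0190, WT left out).

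Pdzrn4 (ENSMAUG00000020766), which encodes a protein with PDZ and RING finger domains, was the called gene that followed the number of mutant copies. Its normalised read counts of 2732, 2637 and 3416 in KO stood above 1386 and 934 in HET, and the WT libraries had 2.3 and 0.85. The log2 fold change between KO and HET was 1.34 (SE 0.289) with an adjusted p of 0.0025 by DESeq2. HET was also called against WT (DESeq2 adjusted p 3.41e-23), 1 of 39 genes called there (0.467%). With the replicate number as a block the call between KO and HET was lost (log2 fold change 1.36, DESeq2 adjusted p 0.0163). Among fits without 1 KO or HET library, the call between KO and HET was kept without HET 2 alone.

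Of the 17 called genes without a symbol, those with the smallest adjusted p are given by identifier. ENSMAUG00000000484 had 451, 383 and 778 normalised read counts in KO and 12.7 and 7.6 in HET, while WT had 252 and 80.6. It rose in KO against HET, with a log2 fold change of 5.73 (SE 0.690) and an adjusted p of 1.04e-12 by DESeq2, and was also called between HET and WT, where it was lower in HET (DESeq2 adjusted p 0.000121). ENSMAUG00000009747 had 112, 238 and 119 in KO, at most 1.9 in HET, and 49.9 and 17.0 in WT (DESeq2 adjusted p 9.98e-05). In both genes the WT libraries lay between HET and KO.

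Among lowered genes, ENSMAUG00000012527 had 19.2, 24.7 and 12.4 normalised read counts in KO, 157 and 251 in HET, and 123 and 117 in WT (log2 fold change −3.44, SE 0.703, DESeq2 adjusted p 0.000789). ENSMAUG00000017203 had 5.6, 8.5 and 3.1 in KO, 121 and 141 in HET, and 59.2 and 47.5 in WT (log2 fold change −4.50, SE 0.940, DESeq2 adjusted p 0.00128). In both genes WT lay between KO and HET. The call of ENSMAUG00000012527 was kept without HET 2 alone, and that of ENSMAUG00000017203 in no fit that left out a KO or HET library. Both calls were also lost with age as a covariate, at log2 fold changes of −3.49 and −4.63 (DESeq2 adjusted p 0.0848 and 0.0696, WT left out). None of the 5 lowered genes was called when genes needed 10 counts in 3 libraries. There ENSMAUG00000012527 and ENSMAUG00000017203 had log2 fold changes of −3.44 and −4.50 (DESeq2 adjusted p 0.0271 and 0.0371).

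The WT libraries, which the contrast between KO and HET does not use, placed the called genes in 3 sets. In 7 genes, all raised, every KO library lay beyond every HET and WT library on the same side, and these were the 7 with a symbol. Symbols came from published gene lists, of which the oocyte list was chosen on KO against WT in these samples, so that named genes are not an independent selection in this respect. In 7 others, 6 raised and 1 lowered, both HET libraries lay beyond every KO and WT library. In the remaining 10, 6 raised and 4 lowered, both WT libraries lay between HET and KO. Among the 322 genes over 2-fold higher in KO without overlap, KO lay beyond all others in 28% and HET in 42.9%. Among the 242 over 2-fold lower these shares were 19.4% and 46.3%, so that genes set apart by HET outnumbered those set apart by KO in both directions. With 2 HET and 3 KO libraries such shares also depend on the numbers of libraries, and the difference between them was not tested.

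**Figure D4:**
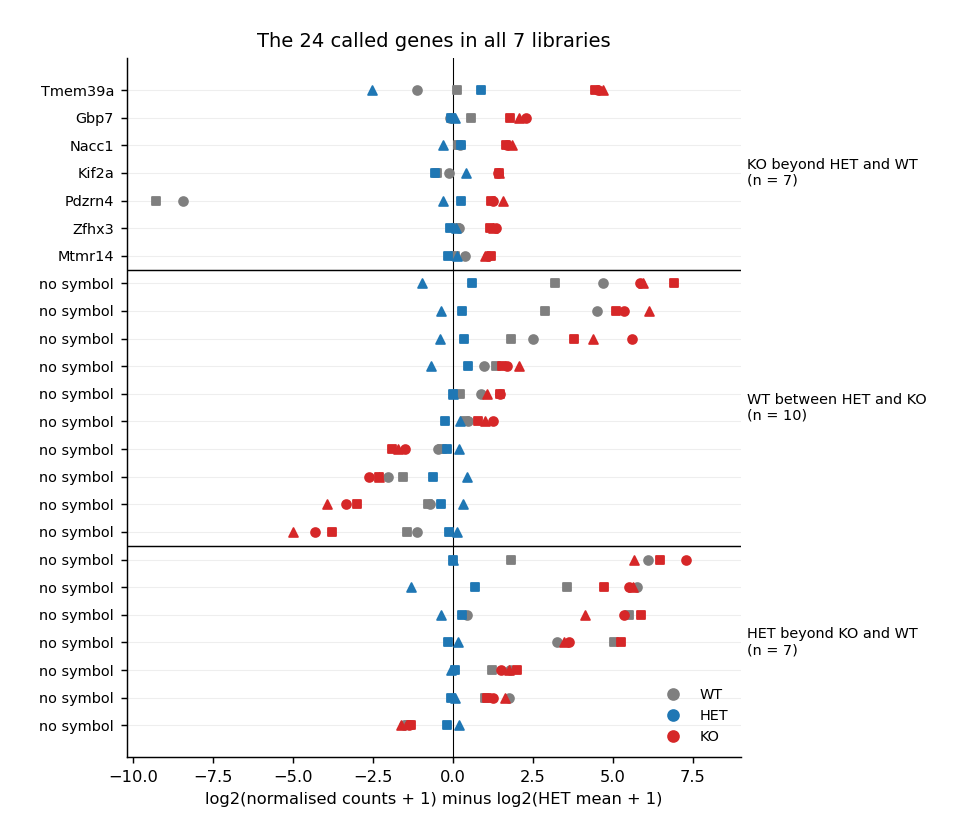
The 24 called genes in all 7 libraries, as log2 of normalised read counts plus 1, minus the same for the HET mean (vertical line). Colours give the genotype and marker shapes the replicate number. In the upper 7 genes KO lies beyond HET and WT, in the middle 10 WT lies between HET and KO, and in the lower 7 HET lies beyond KO and WT.

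All 24 called genes changed in the same direction in KO 2 against HET 2 (both 40 weeks) and KO 3 against HET 3 (both 36 weeks), and 21 differed by more than 2-fold in both pairs. These pairs use the libraries that gave the calls. In all 24 genes the KO and HET libraries did not overlap, so the shared direction was fixed in advance and says nothing about age. None of the 24 was counted in 1 library only. Of the 24 called genes, 13 had counts in all 5 libraries that were whole to within 1e-06, beside 4465 of the 8364 genes described.

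Without 1 KO or HET library at a time, 4 of the 24 genes were called in each of the 5 fits. They were Zfhx3, Kif2a, Nacc1 and ENSMAUG00000000484, all raised. Where a HET library was left out, a single one remained, and the KO and WT libraries alone gave the spread. Mtmr14 and ENSMAUG00000009747 were called in 4 of the 5 fits and lost without KO 2 (DESeq2 adjusted p 0.0147 and 0.0132). None of the 5 lowered genes was called in more than 1 of these fits.

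**Figure D5:**
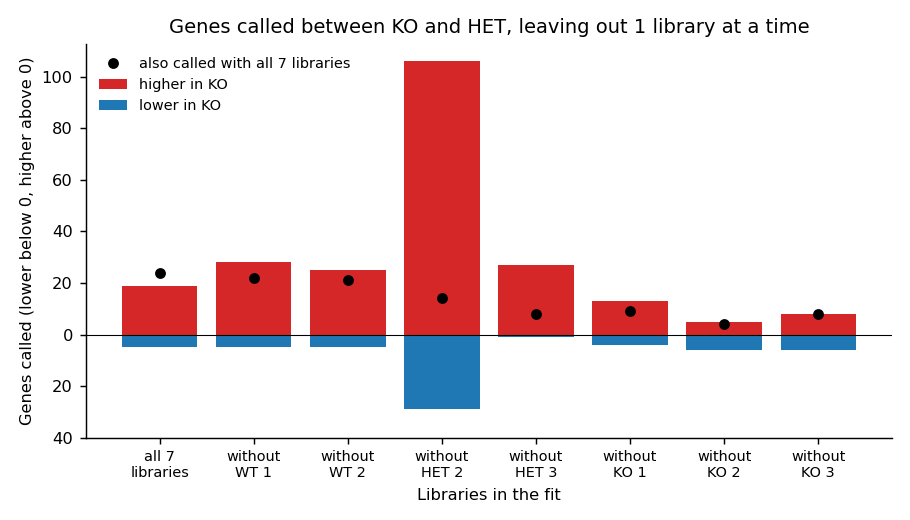
Genes called by DESeq2 between KO and HET with all 7 libraries and without each library in turn, with raised genes above 0 and lowered genes below 0. Black dots give how many of the genes called in each fit were also among the 24. The count runs from 11 without KO 2, with 4 of the 24, to 135 without HET 2, with 14 of the 24.

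Several named genes lay apart between the genotypes without reaching the threshold. Cntn1, which encodes the cell adhesion protein contactin 1, had 166, 276 and 272 normalised read counts in KO, 14.6 and 50.6 in HET and at most 1.2 in WT (log2 fold change 2.87, SE 0.816, DESeq2 adjusted p 0.0856). Syne3, a nesprin of the nuclear envelope, had 62.0, 187 and 89.9 in KO against 17.5 and 6.7 in HET (DESeq2 adjusted p 0.120). Both were scarce, at 5.41 and 2.51 CPM, and the log2 fold change of Cntn1 was 2.23 without HET 2 and 4.03 without HET 3.

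On the low side, Gramd1c, a sterol-binding protein of the endoplasmic reticulum, had 1666, 3485 and 1737 normalised read counts in KO and 4768 and 5377 in HET (log2 fold change −1.14, SE 0.341, DESeq2 adjusted p 0.112). Fgf14, a fibroblast growth factor homologue that stays in the cell, had 740, 365 and 281 in KO and 973 and 1753 in HET (log2 fold change −1.56, SE 0.448, DESeq2 adjusted p 0.0868). In these genes, as in Tmem231 of the ciliary transition zone (log2 fold change −1.88, DESeq2 adjusted p 0.133) and Ubn2 of a histone chaperone complex (log2 fold change −0.67, DESeq2 adjusted p 0.387), each KO library lay below both HET libraries. Fgf14 was called without KO 1 (log2 fold change −2.07, DESeq2 adjusted p 0.000256) and Gramd1c without KO 2 (log2 fold change −1.58, DESeq2 adjusted p 1.55e-05). Fgf14 was also called with the replicate number as a block (log2 fold change −1.92, DESeq2 adjusted p 0.000241).

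Of 33 piRNA pathway genes listed, 21 could be matched to an identifier through the published lists, and 18 of these reached 2 CPM. The members of this and the following lists are thus those with a symbol, which is not an independent selection. None of the 18 was called, beside 0.287% of all genes described. Mov10l1 itself was the 1 gene with an unadjusted p under 0.05, and the median log2 fold change was −0.04, beside −0.02 over all genes described. Among the PIWI genes, Piwil3, the PIWI gene of oocytes in many mammals, had 3182, 3731 and 4022 normalised read counts in KO and 2596 and 2828 in HET (log2 fold change 0.43, SE 0.225, DESeq2 adjusted p 0.746). Its KO libraries lay above HET and WT, where WT had 2879 and 2134. Piwil1 had 3287, 3438 and 3514 in KO and 2096 and 3904 in HET, and the genotypes overlapped (log2 fold change 0.19, SE 0.280).

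The helicase gene Ddx4, a marker of germ cells, had 12149, 15119 and 15245 normalised read counts in KO and 16271 and 17667 in HET, without overlap (log2 fold change −0.26, SE 0.173, DESeq2 adjusted p 0.935). The trimmer of piRNA ends Pnldc1, the methyltransferase Henmt1 and the scaffold proteins Tdrd1, Tdrd5, Tdrd7 and Tdrd9 overlapped between the genotypes, with log2 fold changes of −0.52 (Tdrd9) to 0.13 (Pnldc1). Mov10l1 was the 1 member of 18 that was more than 2-fold apart without overlap, beside 6.74% of all genes described.

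Genes of meiosis and the synaptonemal complex, the protein ladder that joins paired chromosomes, were also uncalled. Of 15 described, 5 lay above and 3 below HET without overlap, beside 9.8% and 10.6% of all genes described. The median log2 fold change was 0.12, beside −0.02 over all genes described, and the largest was 1.15. Of the 5, 2 lay over 2-fold above HET, beside 3.85% of all genes described, and are not named here. Sycp1, of the central part of the complex, had 6867, 5466 and 6221 normalised read counts in KO and 4575 and 3862 in HET (log2 fold change 0.55, SE 0.203, DESeq2 adjusted p 0.323). Sycp3, of its lateral part, had 3835, 2861 and 2977 against 2658 and 2560 (log2 fold change 0.31, SE 0.287). Rec114, needed for meiotic DNA breaks, had 1092, 868 and 882 against 647 and 378 (log2 fold change 0.89, SE 0.335, DESeq2 adjusted p 0.351). In WT, Sycp1 had 5486 and 4510, Sycp3 had 4667 and 2564, and Rec114 had 915 and 820, so that WT 1 lay above every KO library in Sycp3 and HET stood apart from KO and WT in Rec114. Spidr, which takes part in the repair of DNA breaks, lay below HET without overlap, with 1551, 1534 and 1388 in KO, 1745 and 3029 in HET and 1382 and 1868 in WT (log2 fold change −0.68, SE 0.297, DESeq2 adjusted p 0.558). Sun1 and Shoc1 were the other members below HET without overlap.

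Of 10 described kinesin and spindle genes, Kif2a was raised and the other 9 were uncalled, beside 0.287% called of all genes described. Kif27 had 11727, 11892 and 11915 normalised read counts in KO and 12442 and 13316 in HET (log2 fold change −0.12, SE 0.143), and Kif3a overlapped between the genotypes (log2 fold change −0.20, SE 0.220). The median of the 10 was −0.12 on the log2 scale.

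Among 11 proteasome and ubiquitin genes none was called, beside 0.287% of all genes described. Without overlap, 4 lay below HET and none above, beside 10.6% and 9.8% of all genes described, and the median log2 fold change was −0.38, beside −0.02 over all genes described. Skp2, a subunit that selects targets for a ubiquitin ligase, had 555, 1345 and 856 normalised read counts in KO and 1701 and 1661 in HET (log2 fold change −0.87, SE 0.389, DESeq2 adjusted p 0.580). WT had 1152 and 779, so that HET stood apart and KO lay near WT. Fbxw7, another such subunit, was likewise highest in HET, with 2860, 1982 and 2613 in KO, 3698 and 2919 in HET, and 2036 and 2056 in WT (log2 fold change −0.41, SE 0.241).

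Of 19 described genes of mitochondrial respiration and translation none was called, beside 0.287% of all genes described, and the median log2 fold change was 0.14, beside −0.02. Without overlap, 2 of them (Mrps2 and Atp5j2) lay over 2-fold above HET and 2 (Uqcrq and Atp5g1) over 2-fold below, beside 3.85% and 2.89% of all genes described. Atp5g1, of the membrane ring of ATP synthase, had 40.6, 80.8 and 98.2 normalised read counts in KO, 259 and 191 in HET, and 60.4 and 97.6 in WT (log2 fold change −1.62, SE 0.682, DESeq2 adjusted p 0.502). In Atp5g1 both HET libraries lay above every KO and WT library.

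None was called among 10 described oocyte regulators, 11 germ cell genes of RNA binding and translation, 16 endoplasmic reticulum chaperone genes and 19 chromatin genes, beside 0.287% of all genes described. Spire1, an actin nucleator of the oocyte, had 361, 513 and 576 normalised read counts in KO and 1060 and 625 in HET (log2 fold change −0.80, SE 0.379, DESeq2 adjusted p 0.646). Cpeb1, which controls the translation of stored mRNA, had 33012, 33452 and 33671 in KO and 30316 and 38003 in HET (log2 fold change −0.03, SE 0.173). Sall4, a transcription factor of germ cells, differed by −0.09 on the log2 scale (SE 0.177). For these abundant transcripts the SE leaves changes well under 2-fold undetectable with 5 libraries, and an uncalled gene is not shown to be equal in both genotypes.

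Marker genes of other cells were not called among those described, which were 4 gonadal somatic, 3 blood, endothelial and immune, and 2 complement and plasma-type genes, beside 0.287% of all genes described. Without overlap, Aldh1a2, an enzyme of retinoic acid synthesis, lay above HET (142, 169 and 265 normalised read counts in KO, 37.0 and 115 in HET) and Inhbb, an inhibin and activin subunit, below HET (66.5, 88.5 and 0 in KO, 185 and 114 in HET). Of all genes described, 9.8% lay above and 10.6% below HET without overlap. Csf1r, a receptor of macrophages, was abundant in all libraries (50415 to 52058 normalised read counts in KO, 43254 and 54625 in HET), and its log2 fold change was 0.07 (SE 0.167). Inhba, a subunit of activin made by granulosa cells, varied from 11.7 to 369 within HET and from 65.1 to 364 within KO.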

How the data were processed

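The authors extracted RNA from pools of oocytes, amplified cDNA with the Ovation RNA-Seq system, amplified the libraries by 9 cycles of PCR and sequenced them as 100-nt single-end reads, without molecular identifiers. Per the labels and the study's methods, reads were aligned with STAR (2.7.3a) to MesAur1.0 and assigned to Ensembl (release 99) exons with featureCounts (2.0.0), without regard to strand, and reads with several alignments or genes were divided. What the authors deposited are thus estimated counts, of which 10.2 to 11.8% were not whole numbers. Overlapping genes, antisense genes and paralogues are uncertain. Oocyte libraries that the study set aside were not analysed here.

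The estimated counts were rounded and tested with DESeq2 (1.42.0, R 4.3.3): a two-sided Wald test on all 7 libraries with genotype as a factor, median-of-ratios size factors, default filters and unshrunken log2 fold changes. Calls required an adjusted p under 0.01 (Benjamini-Hochberg) over all genes tested (35 of 14954, 0.234%), of which 11 lay under the mean of 2 CPM. Normalised read counts are counts divided by size factors, and CPM are relative to the library total of unrounded counts. Without molecular identifiers, copies of a molecule were counted separately. Library numbers come from the labels. DESeq2 p-values set the difference between KO and HET against a spread between libraries. That spread is estimated from all 7 libraries and drawn towards that of other genes. The principal alternative was the quasi-likelihood test of edgeR (4.0.16). The DESeq2 fit, and not edgeR, was run on simulated counts with changes placed in genes of higher counts only. The outcome of that run is not given here. Plots were drawn with matplotlib (3.10.9).

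The genes and lists were chosen with earlier results of these data known. Named genes were Mov10l1, Kif2a, Piwil3 and Tex101; called genes with a symbol and at most 2 without in each direction; piRNA pathway genes; of other lists the 3 most abundant and the one with the smallest p; and in each of 4 abundance classes the 2 raised and 2 lowered genes with a symbol and the largest statistic without overlap. Further members of the lists (Sycp3, Rec114, Spidr, Sun1, Shoc1, Mrps2, Atp5j2, Uqcrq and Inhbb) were chosen after their values were seen. The table does not pair identifiers with symbols. Symbols were taken, without values, from the identifier and symbol columns of the study's published oocyte and testis gene lists, which named 1044 of 22285 identifiers and 568 of the 8364 genes described. A gene that meets the rule for named genes is not reported here.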

Additional observations from a re-analysis of the deposited data

How the results depend on the processing

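Of the 24 genes called, 2 were called by edgeR, 14 (all raised) when genes needed 10 counts in 3 libraries, and 15 had a mean of at least 10 CPM. The KO and HET libraries fitted alone gave 38, as did an adjusted p under 0.05. With 1 library fewer the number lay between 11 (KO 2 left out) and 135 (HET 2 left out). TMM scaling, rounding down, no Cook's filter and a mean of at least 1 CPM stayed within 1.5 times. With age as a covariate, fitted without the WT libraries, 17 genes were called (11 of them among the 24), against the 38 of that fit without age. Deviations from the genotype mean correlated little between samples with the same replicate number (r = 0.065 and 0.053, 2 pairs). With 2 HET libraries their deviations mirror each other, so the pairs are not independent and cannot decide whether samples were paired. With the replicate number as a block 29 genes were called, 13 of them among the 24. The cause of these changes was not tested.

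Of the 564 genes over 2-fold apart without overlap, 137 had a mean of at least 10 CPM, and a 1.5-fold limit gave 1038 and a 3-fold limit 234. Fewer libraries leave fewer values to overlap, and leaving out 1 gave 742 (without KO 1) to 1717 (without HET 2). Kif2a was called under every alternative except edgeR (log2 fold change 1.43, adjusted p 0.212), and its log2 fold change lay between 1.02 and 2.00 without single libraries. Mov10l1 was called under none, with log2 fold changes of −2.08 to −1.60 without single libraries. For other named genes, 255 of 300 further values kept their side of the threshold, 42 lost it, 3 gained it (Fgf14 and Gramd1c) and none was reversed.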

Other observations

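In the gene order of the RefSeq annotation of another golden hamster assembly (BCM_Maur_2.0, used for names and order alone), Pdzrn4 and Cntn1 are neighbours and lie in the stretch that holds Mov10l1, with 57 entries between Cntn1 and Mov10l1. Within 100 entries on each side of Mov10l1, 13 genes, Mov10l1 included, had both a symbol and a row in the count table, and 7 of them reached a mean of 2 CPM. This window was chosen after the values were seen. Of the 7, Pdzrn4 was called between KO and HET. Without overlap, Cntn1 was higher in KO and Mov10l1 and Creld2 were lower, and none of the 3 was called. Of all genes described, 20.4% lay without overlap and 0.287% were called. Creld2, of the endoplasmic reticulum, had 272, 532 and 576 normalised read counts in KO and 726 and 859 in HET (log2 fold change −0.78, SE 0.409, DESeq2 adjusted p 0.740). Fbln1, Smc1b and Pacsin2 overlapped between the genotypes.

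Below a mean of 2 CPM, 11 further genes were called by DESeq2, all raised. One of them, Ambp, a plasma protein gene, had 91.4 normalised read counts in KO 1 and 0 in the other 6 libraries. Boll, an RNA-binding gene of the Dazl family, had a mean of 0.783 CPM and fell in the order of mutant copies, with 0, 5.1 and 4.1 normalised read counts in KO, 85.7 and 18.1 in HET and 209 and 248 in WT, and was not called between KO and HET (DESeq2 adjusted p 0.0787). Tex101 was likewise scarce, at 0.863 CPM, and overlapped between the genotypes.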
